A study of Homo sapiens with 24 samples.

Results

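The 2 catalytic subunits of the SWI/SNF chromatin remodelling complex, BRG1 and BRM, were compared by where each had called peaks in RWPE1 cells that make the long noncoding RNA SCHLAP1. The comparison uses the BRG1 and BRM samples, 4 of the 24 samples of the series (2 per ATPase), whose deposited data are 1 peak list per ATPase: 51504 BRG1 peaks and 22157 BRM peaks. All peaks of both lists were members, and a BRG1 and a BRM peak were said to meet when they shared at least 1 bp. RWPE1 is a long-established human cell line grown from the epithelium of a benign prostate. The cells carried SCHLAP1 from a lentivirus and had been selected with 2.5 ug/mL blasticidin. They were fixed for 30 min in 0.3% formaldehyde, and 125 mM glycine stopped the reaction. Chromatin for both ATPases was cut with MNase. BRG1 was precipitated with the antibody Abcam ab110641 and BRM with the Cell Signaling antibody 11966, so that the antibody and the ATPase cannot be told apart in any difference between the lists. Control cells with LACZ were profiled for histone marks only, and no effect of SCHLAP1 can be read from these lists. Each group has 2 samples but 1 list, with no score, read count or depth, so no value below has a replicate spread and no test between the groups was possible. Intervals are exact 95% binomial intervals. They cover counting error only and treat neighbouring peaks as independent, which they are not. A place without a peak is one where no peak was called, not one shown to lack the protein.

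SWI/SNF complexes use ATP to slide or evict nucleosomes, and so open promoters and enhancers to other factors. BRG1 (gene SMARCA4) and BRM (gene SMARCA2) are closely related ATPases that take the same place in the complex, so that one complex holds one or the other. The assembled complex also holds core and accessory subunits such as SNF5, the BAF155 and BAF170 proteins and the ARID proteins, and in epithelial cells it works with factors such as AP-1 at enhancers.

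The promoters below show the 3 kinds of site that the lists define. They are the RefSeq promoter windows (GRCh38.p14, 250 bases before to 50 bases after a gene's start, 5′ to 3′ on the gene's strand) that lie whole under the widest promoter peaks of each kind, 2 windows per kind. Capitals mark the GC box, GGGCGG or CCGCCC on the other strand, a motif bound by SP and KLF factors. BHLHE40, a clock-linked repressor, and ZNF783, a zinc finger gene, had a BRM promoter peak of 985 and 817 bp that met no BRG1 peak; for BHLHE40 a BRG1 peak lay 101 bp away, for ZNF783 the nearest was 113454 bp away.
BHLHE40 (chr3:4979187-4979486, + strand): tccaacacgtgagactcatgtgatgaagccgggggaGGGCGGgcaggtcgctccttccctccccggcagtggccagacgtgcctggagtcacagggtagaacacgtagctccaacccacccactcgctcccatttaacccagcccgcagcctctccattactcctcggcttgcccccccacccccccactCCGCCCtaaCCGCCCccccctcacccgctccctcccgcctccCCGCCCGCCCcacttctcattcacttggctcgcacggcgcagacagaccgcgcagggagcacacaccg
ZNF783 (chr7:149261946-149262245, + strand): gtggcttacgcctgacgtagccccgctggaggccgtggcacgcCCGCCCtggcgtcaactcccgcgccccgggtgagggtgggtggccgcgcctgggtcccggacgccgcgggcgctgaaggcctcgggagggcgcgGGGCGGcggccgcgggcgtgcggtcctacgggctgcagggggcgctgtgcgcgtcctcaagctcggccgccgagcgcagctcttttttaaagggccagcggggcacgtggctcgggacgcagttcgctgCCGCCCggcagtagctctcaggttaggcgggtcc
COL17A1, a hemidesmosome collagen of basal epithelium, and CASP4, an inflammatory caspase, had a BRG1 promoter peak of 4171 and 2392 bp that met no BRM peak; the nearest BRM peaks lay 284 and 1052904 bp away.
COL17A1 (chr10:104085831-104086130, - strand): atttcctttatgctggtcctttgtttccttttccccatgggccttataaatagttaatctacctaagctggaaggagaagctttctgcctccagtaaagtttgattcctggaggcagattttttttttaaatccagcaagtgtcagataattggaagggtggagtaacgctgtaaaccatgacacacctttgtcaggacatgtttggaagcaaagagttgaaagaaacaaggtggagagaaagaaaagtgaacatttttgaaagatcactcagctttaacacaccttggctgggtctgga
CASP4 (chr11:104968525-104968824, - strand): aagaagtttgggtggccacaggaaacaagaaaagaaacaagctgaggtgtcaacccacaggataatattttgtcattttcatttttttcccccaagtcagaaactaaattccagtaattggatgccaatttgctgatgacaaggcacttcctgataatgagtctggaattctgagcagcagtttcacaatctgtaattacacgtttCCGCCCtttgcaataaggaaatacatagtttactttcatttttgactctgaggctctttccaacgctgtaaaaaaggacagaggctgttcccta
GSE1, a gene for a chromatin-associated protein, and MSL2, a ubiquitin ligase of a histone acetylating complex, had 1 BRG1 peak of 5567 and 5197 bp that met 1 BRM peak and no other.
GSE1 (chr16:85613072-85613371, + strand): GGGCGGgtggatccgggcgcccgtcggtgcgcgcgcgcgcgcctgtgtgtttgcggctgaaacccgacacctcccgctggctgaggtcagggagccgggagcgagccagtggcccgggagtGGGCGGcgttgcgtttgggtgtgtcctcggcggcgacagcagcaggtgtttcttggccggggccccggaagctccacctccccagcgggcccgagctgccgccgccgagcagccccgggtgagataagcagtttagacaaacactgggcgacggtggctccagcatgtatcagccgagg
MSL2 (chr3:136196286-136196585, - strand): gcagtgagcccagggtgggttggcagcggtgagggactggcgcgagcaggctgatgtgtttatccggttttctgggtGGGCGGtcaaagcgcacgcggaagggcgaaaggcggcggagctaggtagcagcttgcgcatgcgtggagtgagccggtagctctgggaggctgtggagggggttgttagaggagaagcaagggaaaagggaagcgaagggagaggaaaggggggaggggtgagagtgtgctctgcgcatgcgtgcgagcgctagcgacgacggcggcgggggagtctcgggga
The 2 windows with BRM alone held 22 and 42 CG dinucleotides and 5 and 3 GC boxes. Those with BRG1 alone held 1 and 3 CG dinucleotides, with no GC box at COL17A1 and 1 at CASP4. The 2 windows with both held 34 and 25 CG dinucleotides and 2 and 1 GC boxes. The next window of each kind, whose sequence is not shown, narrowed the contrast for BRM. HSD3B7, with BRM alone, held 12 CG dinucleotides and 1 GC box. RAET1E, with BRG1 alone, held 6 and 0, and PKM, with both, held 34 and 3. These are the widest members of each kind that the rule allowed, not the widest of all. The widest BRM promoter peak without BRG1 was 1161 bp. The shares over all windows are given further on.

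BRM peaks lay almost wholly within the BRG1 list, and most BRG1 peaks lay outside the BRM list. Of the BRM peaks, 20425 (92.2%, interval 91.8 to 92.5%) met a BRG1 peak, and of the BRG1 peaks 18370 (35.7%, 35.3 to 36.1%) met a BRM peak. By length, the lists shared 13.8 Mb, which was 90.1% of the 15.3 Mb under BRM peaks and 30.9% of the 44.8 Mb under BRG1 peaks. The lists differ in length, so these shares describe nesting and not amounts of protein. With as many of the widest BRG1 peaks as there are BRM peaks, 63.0% of those BRG1 peaks met a BRM peak and 74.7% of BRM peaks met one of them.

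BRG1 peaks met BRM mostly at gene starts. Among BRG1 promoter peaks (within about 1000 bp of a TSS, as annotated in the deposited lists) 61.6% met a BRM peak (60.9 to 62.3%). The share was 30.4% in exons (28.1 to 32.7%), 22.8% at distal sites (22.1 to 23.6%) and 17.9% in introns (17.3 to 18.4%). It fell with distance, from 72.5% of BRG1 peaks under 100 bp from a TSS to 45.6% at 500 to 1000 bp, 25.8% at 1 to 3 kb and 13.5% beyond 50 kb. The share of BRM peaks that met BRG1 stayed high over the same classes, at 97.0% under 100 bp, 84.6% at 1 to 3 kb and 92.1% beyond 50 kb. Width went with meeting in every class. BRG1 promoter peaks that met BRM had a median width of 1215 bp and the others 505 bp, and in introns the medians were 1113 and 517 bp. Of the 1951 BRG1 peaks at the narrowest width in their list, 331 bp, 6.36% met a BRM peak, whereas of the 1062 BRM peaks at the narrowest width, 310 bp, 76.8% met a BRG1 peak. The part of width in the difference between promoters and other sites was not tested.

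**Figure D1:**
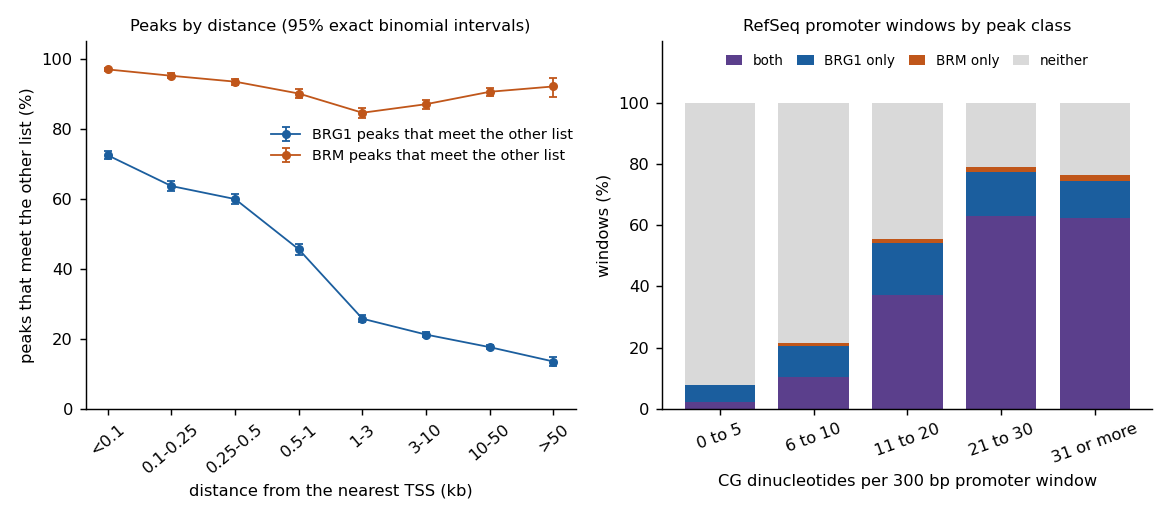
Left, percent of BRG1 peaks (blue) and of BRM peaks (orange) that met the other list, by distance in kb from the nearest TSS, with 95% exact binomial intervals. BRG1 falls from 72.5 to 13.5% while BRM stays between 84.6 and 97.0%. Right, stacked bars of the percent of 300 bp RefSeq promoter windows covered by a peak of both lists, of BRG1 alone, of BRM alone or of neither, by CG dinucleotides per window; windows with both make up 2.11% of those with 0 to 5 and 62.2% of those with 31 or more.

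The sequence of the promoter windows differed along the same lines. A window counted as covered by a list when a peak shared at least 1 bp with it. Of 35116 RefSeq windows, 11344 (32.3%) were covered by both lists, 3805 by BRG1 alone, 352 by BRM alone and 19615 by neither. The median number of CG dinucleotides per window was 28 with both, 27 with BRM alone, 20 with BRG1 alone and 5 with neither. GGGCGG, searched on both strands with overlapping matches allowed, was present in 45.0% of all windows. It was in 74.98% with both (74.2 to 75.8%), 69.9% with BRM alone (64.8 to 74.6%), 57.7% with BRG1 alone (56.2 to 59.3%) and 24.7% with neither. The interval of the small BRM class overlaps that of the class with both, and lies apart from that of BRG1 alone. TGANTCA, a loose form of the AP-1 motif with any middle base, was in 7.71% of all windows and ran the other way. It was in 9.25% with BRG1 alone (8.35 to 10.2%), 4.70% with both (4.32 to 5.10%) and 1.70% with BRM alone (0.628 to 3.67%), against 9.26% with neither. TATAAA, the TATA box, was in 11.5% of all windows, in 7.81% with BRG1 alone and in 4.21% with both. CCAAT, the NF-Y motif, was in 34.6% of all windows and in 31.8 to 35.1% of the 4 classes. GGAATG, a TEAD motif, was in 14.0% of all windows, in 10.1% with both and in 14.0% with BRG1 alone. In classes of CG count set after the values were seen, the share of BRG1-covered windows also covered by BRM was 27.7% with 0 to 5 CG dinucleotides, 50.9% with 6 to 10, 68.9% with 11 to 20, 81.1% with 21 to 30 and 83.8% with 31 or more. A motif match describes letters in a window and is not a binding site, and CG content and the GC box move together. Median GC content was 67% with both, 67.2% with BRM alone, 61.7% with BRG1 alone and 50% with neither. The part of base composition in the motif shares was not tested.

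Where the ATPases met, the BRM peak was usually a narrower peak placed inside the BRG1 peak. There were 21268 overlapping pairs, and 14542 of them were one-to-one, with neither peak meeting a further peak of the other list. These held 79.2% of the BRG1 peaks and 71.2% of the BRM peaks that met the other list. Median widths in the pairs were 1113 bp for BRG1 and 588 bp for BRM. The median ratio of BRG1 to BRM width was 1.67 (1.65 to 1.68), with quartiles of 1.26 and 2.34. For comparison, the median widths of the whole lists, 667 and 547 bp, have a ratio of 1.22. BRG1 was the wider peak in 91.1% of pairs and at least 2 times as wide in 35.4%. The BRM peak lay wholly inside the BRG1 peak in 69.4% of pairs, the BRG1 peak wholly inside the BRM peak in 2.53%, and 28.1% overlapped in part. The centre of the BRM peak fell inside the BRG1 peak in 97.4%.

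The nesting of the pairs limits how far their centres can lie apart. The median distance between centres was 129 bp (126.5 to 131.5), with quartiles of 57 and 234 bp, and 11.99% of pairs had centres within 25 bp. In genome direction there was no preferred side, with the BRM centre to the right in 49.6% and to the left in 50.2%. The offset differed little by type, from 120.5 bp at distal sites to 143 bp in introns. The width ratio differed more, at 2.00 in introns (1.93 to 2.04), 1.84 at distal sites (1.78 to 1.90), 1.58 at promoters (1.56 to 1.59) and 1.56 in exons (1.46 to 1.68). BRM peaks were narrower in introns (median 450 bp) and at distal sites (469 bp) than at promoters (682 bp), whereas BRG1 medians were 1051, 1007.5 and 1164 bp. Over the pairs, wide BRG1 peaks went with wide BRM peaks (Spearman rank correlation 0.57 over 14542 pairs, a description across sites of 1 pair of lists). With the pairs sorted by BRM width into 5 equal parts, the median ratio was 2.40 in the part with the narrowest BRM peaks and 1.34 in the part with the widest. Sorted by BRG1 width instead, it was 1.202 in the narrowest part and 1.90 in the widest. The minimum BRG1 width sets a floor and the minimum BRM width a ceiling for these ratios. Annotations mostly coincided, with the same type in 97.5% of pairs and the same nearest TSS in 96.0%.

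**Figure D2:**
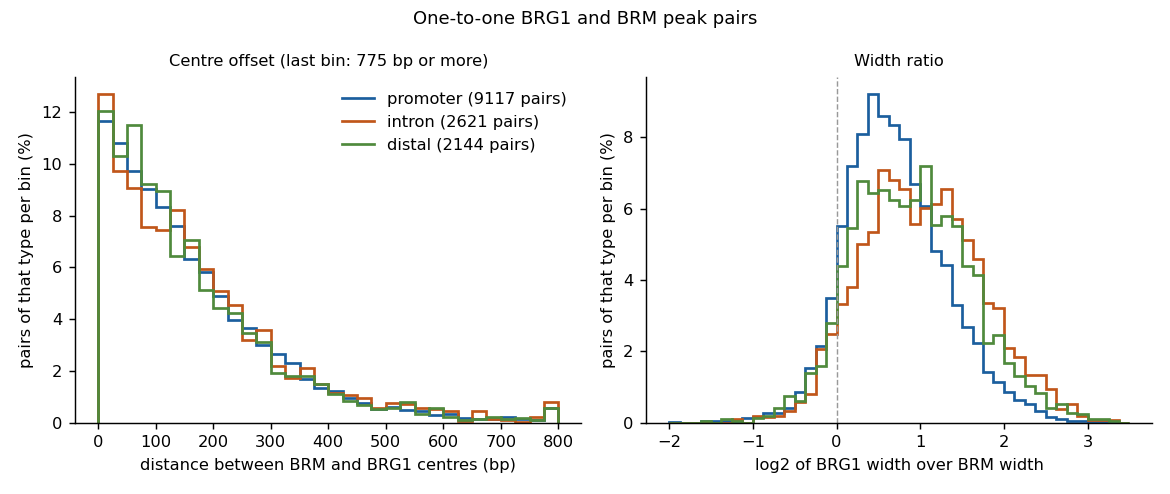
Distributions over one-to-one pairs whose peaks have the same annotation: promoter (9117 pairs), intron (2621) and distal (2144), as percent of pairs of that type per bin. Left, distance in bp between the BRM and the BRG1 centre, nearly the same curve for the 3 types; right, log2 of BRG1 width over BRM width, where the dashed line marks equal widths and the intron and distal curves lie to the right of the promoter curve.

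At promoters the BRM centre was more often the one nearer to the TSS. This was looked at after the orientation of the pairs had been seen, and is a description. In the 8575 one-to-one pairs annotated as promoter in both lists with the same nearest gene, the deposited distance was shorter for BRM in 58.2% (57.2 to 59.3%) and shorter for BRG1 in 41.2%. The median distance was 131 bp for BRM and 163 bp for BRG1. In the 5146 pairs annotated as promoter in neither list, BRM was nearer in 50.5% (49.2 to 51.9%) and BRG1 in 49.1%. The direction along the gene was less clear. Of 6241 promoter pairs whose gene matched a RefSeq promoter, the BRM centre lay upstream of the BRG1 centre in 58.3% (57.1 to 59.6%). That share was 66.7% where the BRG1 centre lay downstream of the RefSeq start (4663 pairs) and 33.7% where it lay upstream (1574 pairs). It was 44.1% where the start was under 200 bp from the BRG1 centre and 65.8% at 200 to 500 bp. These subsets were chosen after the values were seen, and since the direction turned with the subset no side is called. In the 4934 pairs with a RefSeq start within 1000 bp of the BRG1 centre, the BRG1 peak covered the start in 82.8% and the BRM peak in 72.8%. In those pairs the BRG1 peak reached a median of 145 bp further upstream and 223 bp further downstream than its BRM partner.

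The pairs with the most unequal widths had a long BRG1 peak with a BRM peak of at most 594 bp. At DENND1B, a regulator of vesicle traffic, a distal BRG1 peak of 3418 bp (chr1:197781847-197785264) met a BRM peak of 333 bp, a ratio of 10.3. MYOF, a membrane repair protein, had an intron BRG1 peak of 3067 bp (chr10:93436377-93439443) with a BRM peak of 310 bp, a ratio of 9.89. EML1, a microtubule binding protein, had an intron pair of 3221 and 328 bp, a ratio of 9.82. DNMBP, a scaffold of cell junctions, had the largest offset. Its BRG1 peak of 5771 bp, listed under introns, lay 1679 bp from the TSS. Its BRM peak of 594 bp, listed under promoters, lay 88 bp from it, and the centres were 1772.5 bp apart. TCEA1, an elongation factor, had a promoter pair of 3028 and 321 bp. In these 5 pairs the BRM peak took up a short stretch of a long BRG1 peak, at promoters as well as in introns. The next largest offsets were 1584 bp between a BRG1 peak named for AC100771.2 and a BRM peak named for LGR4, 1514 bp at a second MYOF pair and 1452 bp at FAM53B.

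The 5 pairs with the lowest ratios were all at promoters. STUB1, a ubiquitin ligase, had a BRG1 peak of 406 bp (chr16:680612-681017) beside a BRM peak of 1607 bp, a ratio of 0.253. At the histone gene HIST1H4E the BRG1 peak of 331 bp, the narrowest width in the list, lay within a BRM peak of 1000 bp. At the small nuclear RNA genes RNU4-2 and RNU4-1 the widths were 380 and 1143 bp. At ABCA7, a lipid transporter, they were 457 and 1351 bp. At GPS2, a corepressor subunit, they were 409 and 1209 bp. In the other direction from both extremes, some wide pairs were nearly identical. At ADRM1, a proteasome subunit, BRG1 (chr20:62301709-62308726, 7018 bp) and BRM (6919 bp) had centres 5.5 bp apart and a ratio of 1.014. ZMYND8, a reader of acetylated histones, had a promoter pair of 3902 and 3792 bp with centres 8 bp apart. COMTD1 (3596 and 3241 bp) and ZHX2 (3437 and 3288 bp) had centres 18.5 and 5.5 bp apart.

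Some long BRG1 domains were broken into several BRM peaks. There were 2495 BRG1 peaks with 2 or more BRM peaks, which held 5359 BRM peaks, with a median gap of 173 bp between neighbouring BRM peaks. Median BRG1 width was 1076 bp with 1 BRM peak, 1806 bp with 2 and 2968 bp with 3. The BRG1 peak with the most partners lay on chr20:45336230-45349423, was named for AL021578.1, spanned 13194 bp and met 7 BRM peaks of 540 to 2758 bp that covered 84.5% of it. A ZMYND8 promoter BRG1 peak of 10943 bp met 6 BRM peaks that covered 54.9%. BCL9L, a beta-catenin cofactor, had one of 6335 bp with 6 BRM peaks that covered 83.8%. ZC3H12A, an RNase of inflammation, and BLCAP each had a BRG1 peak with 5 BRM peaks. The reverse was less common, with 823 BRM peaks that met 2 or more BRG1 peaks. At PLEC a BRM peak of 10014 bp (chr8:143933650-143943663) met 3 BRG1 peaks that covered 97.1% of it. The others with 3 BRG1 peaks named by the same rule were at ACTB, which encodes beta-actin and is itself a SWI/SNF subunit (3729 bp), GADD45B, a stress response gene (3485 bp), TRAF4, a receptor adaptor (3374 bp), and HOOK2 (3344 bp).

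The BRM peaks without BRG1 were few, narrow and often beside a BRG1 peak. There were 1732 of them (7.82% of the list), with a median width of 365 bp. The median gap to the nearest BRG1 peak was 1504.5 bp, and 42.8% lay within 1 kb of one. Exons held 10.97% of them and 3.37% of the whole BRM list, while promoters held 41.5% of them and 62.8% of the list. They were uneven over the chromosomes. Chromosome 20 held 9.82% of them and 4.99% of the BRM list, chromosome 9 11.3 and 6.40%, and chromosome 8 6.06 and 3.38%. Chromosome 19 held 9.70 and 6.88%, chromosome 22 1.33 and 0.388%, and chromosome 1, in the other direction, 9.93 and 11.4%. The 33134 BRG1 peaks without BRM had a median width of 511 bp and lay farther from the other list, with a median gap of 19086 bp. A gap of over 50 kb was seen in 31.02% of them and in 6.93% of the BRM peaks without BRG1. Introns held 48.2% of BRG1 peaks without BRM, against 37.7% of the BRG1 list.

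The share of BRG1 peaks with BRM was uneven over the chromosomes. It was highest on chromosome 19 (55.2%, 53.2 to 57.3%) and 17 (45.4%) and lowest on X (15.3%, 11.995 to 19.1%), 22 (19.9%, 15.7 to 24.8%) and 18 (23.9%, 20.01 to 28.0%). Promoters alone gave the same 3 low chromosomes, with 20.1% on X, 22.4% on 22 and 38.2% on 18, against 62.9% on all others together. On these 3 chromosomes both lists were short, with 418, 316 and 457 BRG1 peaks and 84, 86 and 130 BRM peaks on X, 22 and 18. BRG1 peaks there were also narrower, with medians of 483, 459.5 and 558 bp against 673 bp elsewhere. BRM peaks met BRG1 least often on 22 (73.3%) and X (77.4%), and in 94.6% on 18. The part of copy number, calling or annotation in these values was not tested. Without the 3 chromosomes the share of BRG1 peaks with BRM was 36.0%.

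**Figure D3:**
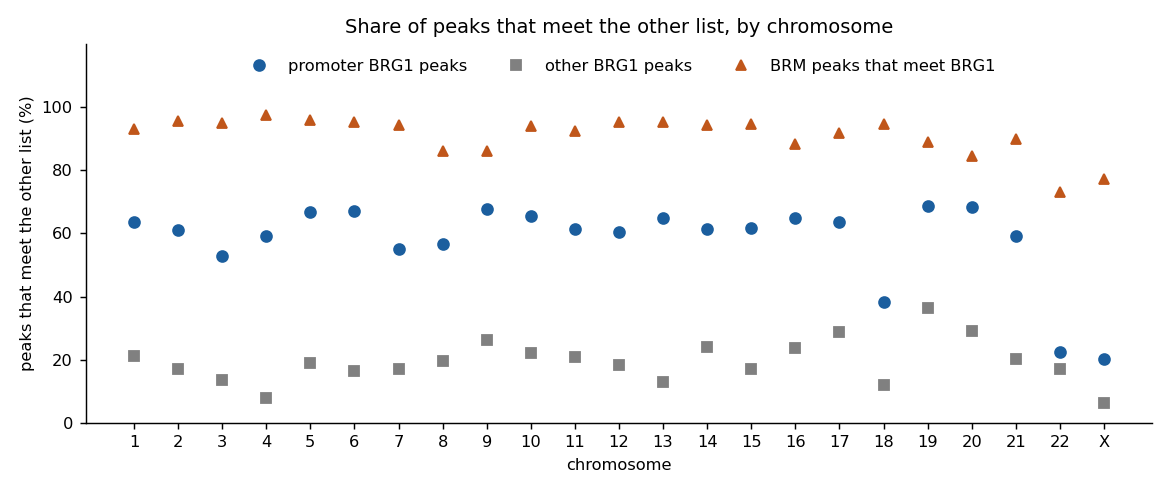
Percent of promoter BRG1 peaks (circles), other BRG1 peaks (squares) and BRM peaks (triangles) that met the other list, for each chromosome. Promoter BRG1 peaks lie between 52.8 and 68.5% on all chromosomes but 18, 22 and X, where they are at 38.2, 22.4 and 20.1%.

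By gene, the nearest TSS of a peak gave 22248 names over both lists. Both ATPases named 12616 genes (56.7%), BRG1 alone 8750 (39.3%) and BRM alone 882 (3.96%). Among the genes named by both, 6430 had more BRG1 peaks, 5199 had equal numbers and 987 (7.82%) had more BRM peaks. The share of genes without any BRM peak was 53.9% of genes with 1 BRG1 peak, 24.0% with 4, 15.1% with 5 and 16.5% with 6. It was 10.4% with 8, and with 10 to 18 BRG1 peaks, where few genes are counted, it lay between 0 and 11.5%. Genes with 5 or more BRG1 peaks and no BRM peak numbered 287, which was 1.29% of all names and 11.7% of the 2448 names with at least 5 BRG1 peaks. In 279 of them no BRG1 peak of that name met a BRM peak. Of the 197 matched to RefSeq, 34 had a BRM peak with another name within the gene and 163 had none. Just inside this limit were 118 genes with 5 BRG1 peaks, such as CLDN1 and ARHGAP18, and just outside were 308 with 4, such as PID1 and RAET1E. At CLDN1, unlike the other examples, 1 of the BRG1 peaks met a BRM peak with another name. Genes with 2 or more BRM peaks and no BRG1 peak numbered 63, which was 0.283% of all names and 1.45% of the 4354 names with at least 2 BRM peaks. Just inside were 49 genes with 2 BRM peaks, such as IRX4 and SAFB2, and just outside 819 with 1, such as ZNFX1. Every BRM peak of these examples met a BRG1 peak with another name. The nearest TSS decides much of this smaller group, since in 24 of the 63 every BRM peak met a BRG1 peak that was named for a neighbouring gene, and in 26 none did. Of the 51 matched to RefSeq, 36 had a BRG1 peak with another name within the gene and 15 had none. Both counts depend on the lengths of the lists: with as many of the widest BRG1 peaks as BRM peaks, the 287 became 12 and the 63 became 353, so the balance between them turned. The median RefSeq length of the 197 matched genes among the 287 was 33504 bp, against 68955 bp for matched genes with 5 or more BRG1 peaks and a BRM peak. Promoter peaks made up 11.99% of the BRG1 peaks of the 287 and 22.5% of those of the genes with a BRM peak.

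**Figure D4:**
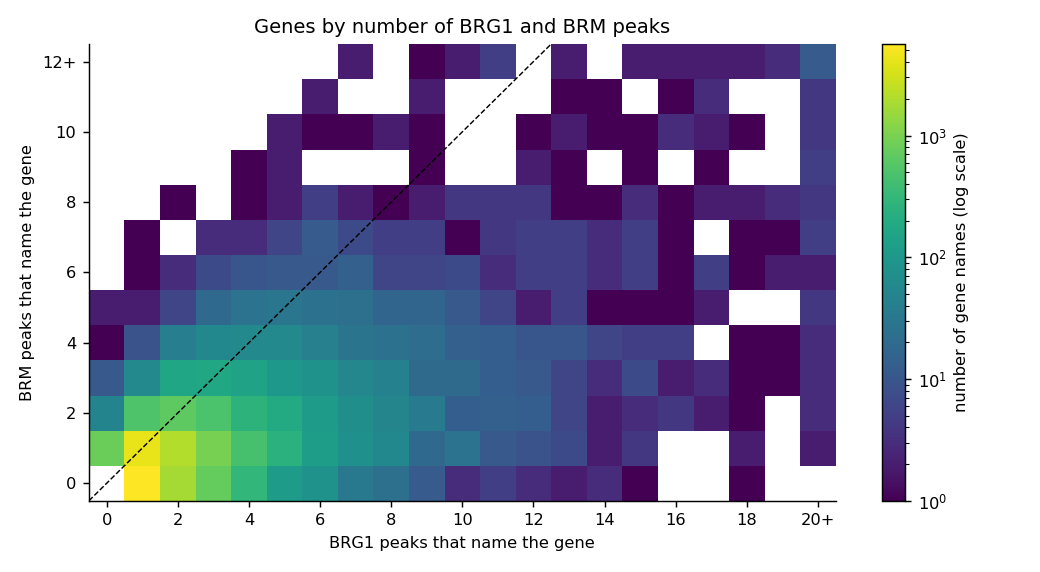
Number of gene names (colour, log scale) by the number of BRG1 peaks (horizontal, 20 or more drawn as 20+) and BRM peaks (vertical, 12 or more drawn as 12+) that name them; the dashed line marks equal numbers and white cells hold no gene. Most genes lie on or below the line; the bottom row holds the 8750 genes with BRG1 alone and the left column the 882 with BRM alone.

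The genes with many BRG1 peaks and no BRM peak had them spread over long spans, mostly in introns or distal DNA. FTO, an RNA demethylase, had the most, with 18 BRG1 peaks of 339 to 1428 bp spread over 376.8 kb of chromosome 16. Of these 17 were in introns and 1 at the promoter, and the nearest BRM peak to any of them was 200133 bp away. ADGRF1, an adhesion receptor, had 15 over 175.2 kb, of which 2 were promoter peaks, and the nearest BRM peak was 73698 bp away. THADA had 14 over 319.9 kb, 2 of them at promoters, with the nearest BRM peak 40540 bp away. KAZN, which encodes a protein of cell junctions, had 14 BRG1 peaks; 2 BRM peaks with other names lay within their span and 6 within the RefSeq gene. The rest of the first 12 were the noncoding genes AC108114.1 (13), LINC00598 (13), AC025031.5 (12), AC104046.1 (12) and MIR100HG (11), and the protein-coding genes TPRG1 (14), TP63 (12) and ZPLD1 (11). None of the ZPLD1 peaks and 2 of the ADGRF1 peaks lay within the RefSeq gene. In none of the 12 did a BRG1 peak of that name meet a BRM peak.

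TPRG1 and TP63 are neighbours on chromosome 3. TP63 encodes p63, the transcription factor that maintains the basal layer of stratified and glandular epithelia. From the first TPRG1 peak to the last TP63 peak (chr3:188854187-189806703, 952.5 kb) there were 29 BRG1 peaks of 331 to 2072 bp and 1 BRM peak, of 753 bp, named for TPRG1-AS1. Of the 12 TP63 peaks of BRG1, 5 were distal and 7 in introns. The widest of these 12 (chr3:189791708-189793779, 2072 bp) lay in an intron 2940 bp from the nearest TSS, followed by 5 further intron peaks. BRM was not absent from the gene, since the naming by nearest TSS gives the downstream introns of TP63 to the microRNA gene MIR944. Within the RefSeq TP63 gene (chr3:189596746-189897276) there were 16 BRG1 peaks, 9 of them named for MIR944, and 2 BRM peaks, both named for MIR944. These BRM peaks (chr3:189841816-189842293 and chr3:189842914-189843754, 478 and 841 bp) met the same BRG1 peak, the widest in the gene (chr3:189841121-189843715, 2595 bp). The other 15 BRG1 peaks in the gene met none. No peak named for TP63 was annotated as promoter.

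The genes with BRM peaks and no BRG1 peak were of 2 kinds. At some, BRM peaks were called with no BRG1 peak close by. Most of these lie on chromosomes with more than their share of BRM peaks without BRG1. The part of the chromosome in this was not tested. CHRNA4, a neuronal acetylcholine receptor subunit, had 5 BRM peaks of 316 to 502 bp within 16.6 kb of chromosome 20, 3 of them at promoters, and the nearest BRG1 peak was 69371 bp away. KCNT1, a potassium channel, had 4 BRM peaks of 320 to 529 bp on chromosome 9, with BRG1 no nearer than 32752 bp. SCO2, a mitochondrial copper chaperone, had 3 promoter BRM peaks within 1.58 kb of chromosome 22, with BRG1 no nearer than 15001 bp. MIR7112 had 3 with BRG1 8241 bp away, and the pseudogene IGKV1OR1-1 had 5 with BRG1 307760 bp away. The IGKV1OR1-1 peaks were distal, 15991 to 18757 bp from its TSS. BRG1 peaks were sparse there, with 9 within 1 Mb against 195 for CHRNA4, and few on all of chromosome 22 (316), which holds SCO2. At the others BRG1 peaks with a neighbour's name met the BRM peaks or lay close by. FAM83H had 3 BRM peaks that met none, but a BRG1 promoter peak of 1932 bp named for MIR4664 lay in the gene, 1887 bp from the nearest of them, and met another BRM peak of that name. HOXA6, a positional homeobox gene, had 3 BRM promoter peaks of up to 1269 bp, and all 3 met a BRG1 peak named for another gene. The same held for all 3 peaks of DM1-AS, for 2 of 3 at JMJD4 and at the receptor adaptor TRADD, and for 1 of 3 at ARFRP1 and C20orf166-AS1. At ARFRP1 the peak that met BRG1 was the widest, 1618 bp, and the next lay 86 bp from a BRG1 peak.

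**Figure D5:**
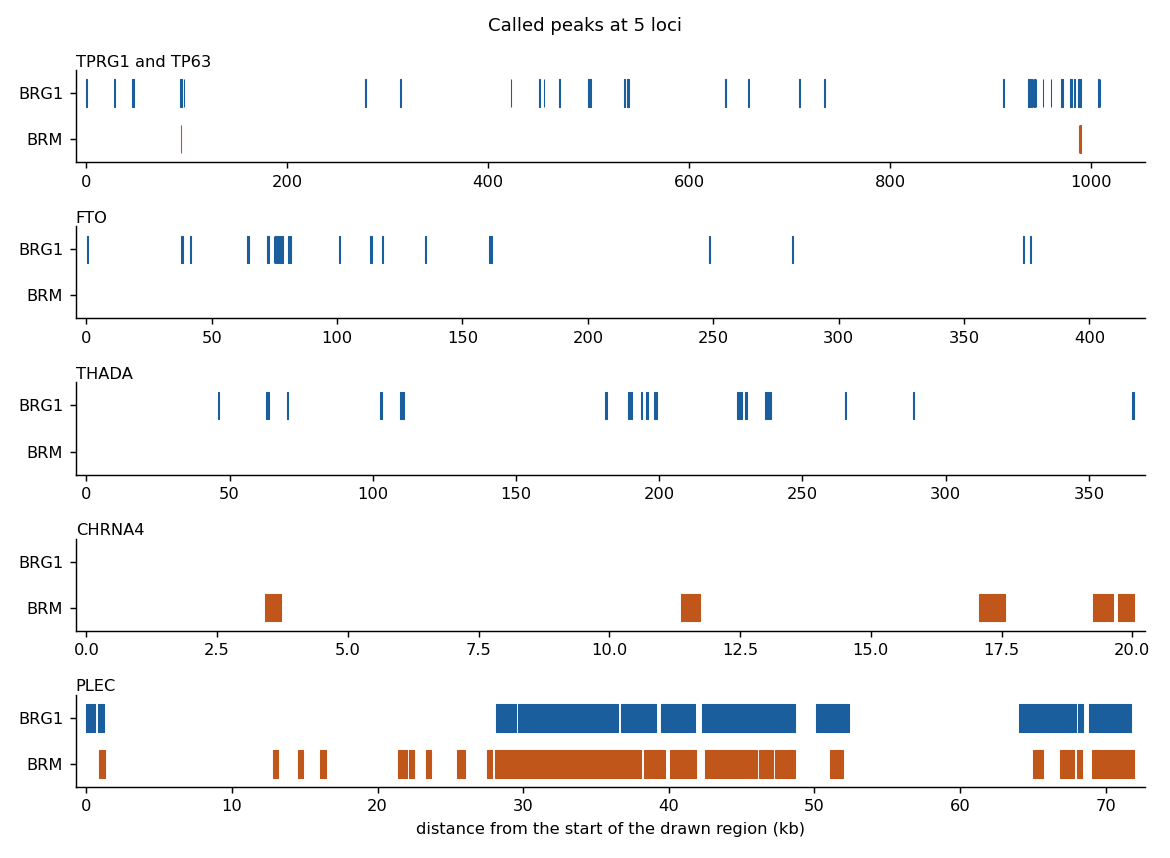
Called BRG1 (blue) and BRM (orange) peaks of any name at 5 loci, drawn to scale in kb over the named peaks and the RefSeq genes. The span from the first TPRG1 peak to the end of TP63 holds 38 BRG1 peaks and 3 BRM peaks, FTO 19 and 0, THADA 21 and 0, CHRNA4 0 and 5, and PLEC 11 and 22.

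Among genes named by both, the 5 with the largest excess of BRM over BRG1 peaks were PLEC, LAMA5, GRIN1, SBNO2 and MIRLET7BHG. They lie on chromosomes 8, 20, 9, 19 and 22, each with more than its share of BRM peaks without BRG1. In 4 of these genes the median BRM peak was narrower than the median BRG1 peak, and at LAMA5 it was wider (750 and 634 bp). PLEC, which encodes plectin, a linker of keratin filaments to hemidesmosomes, had 11 BRG1 and 22 BRM peaks, yet their summed widths were 29862 and 28440 bp. Of its BRM peaks 8, of 310 to 622 bp, met no BRG1 peak. LAMA5, a basement membrane laminin chain, had 11 BRG1 and 18 BRM peaks with summed widths of 17540 and 25825 bp, so there BRM covered more sequence. GRIN1, a glutamate receptor subunit, had 7 and 14 peaks with 8612 and 8300 bp. SBNO2 had 7 and 14 with 8272 and 8384 bp, and MIRLET7BHG, a microRNA host transcript, had 2 and 8 with 1226 and 3351 bp. In the other direction, the names with the largest excess of BRG1 peaks were Y_RNA (249 and 52) and Metazoa_SRP (59 and 19), which are repeated small RNA genes named on 22 and 19 chromosomes and not single loci. ARHGAP26, a GTPase regulator, had 33 BRG1 and 9 BRM peaks, EFNA5, an ephrin ligand, 32 and 9, and MCC 31 and 8. At these 3 genes every BRM peak met a BRG1 peak, while 8, 8 and 6 of the BRG1 peaks met BRM.

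The genes of the ATPases themselves had both. SMARCA4, which encodes BRG1, had 4 BRG1 peaks of 417 to 942 bp and 2 BRM peaks of 310 and 1166 bp. Its 2 promoter BRG1 peaks (chr19:10960082-10961023 and chr19:10961313-10962142) were joined by 1 BRM promoter peak (chr19:10960420-10961585) whose centre was 0 bp from the TSS. SMARCA2, which encodes BRM, had 4 promoter BRG1 peaks of 357 to 710 bp and 1 BRM peak of 336 bp (chr9:2017318-2017653), also 0 bp from a TSS, which met 1 of them. Of 29 genes of SWI/SNF subunits, 22 were named by both, 6 by BRG1 alone (SMARCD3, PBRM1, BRD7, ACTL6B, SS18 and BCL7C) and none by BRM alone. Of the subunit genes with a BRG1 peak 21.4% had no BRM peak, against 41.0% of all such names. The share over all names fell with the number of BRG1 peaks, from 53.9% with 1 to 24.0% with 4. PBRM1 and BRD7 are subunits of the PBAF form, of which ARID2 (2 and 3 peaks of BRG1 and BRM) and PHF10 (1 and 1) were named by both. PBRM1 had 1 BRG1 peak and BRD7 had 2, numbers at which 53.9 and 37.6% of all names had no BRM peak. ARID1A and ARID1B, the large DNA-binding subunits of the canonical form, had 12 and 3, and 19 and 4 peaks of BRG1 and BRM, whereas SS18L1 had 4 and 9. In all, 42.3% (32.3 to 52.7%) of the 97 BRG1 peaks at subunit genes met BRM, against 35.7% in the whole list.

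At the SCHLAP1 locus on chromosome 2 there were BRG1 peaks and few BRM peaks. SCHLAP1 was the nearest TSS of 5 BRG1 peaks of 331 to 503 bp, annotated as intron, and of no BRM peak. All 5 lay before the RefSeq gene (chr2:180692104-180916939), over a span of 21.7 kb from first to last. They were 14539 to 35821 bp from the listed TSS. Within the RefSeq gene there were 4 BRG1 peaks of 331 to 468 bp and 1 BRM peak of 414 bp with other names, none of which met the other list. The neighbours UBE2E3 and ITGA4 had 2 and 1 BRG1 peaks and no BRM peak, and CWC22 had 3 BRG1 peaks and 1 BRM peak of 310 bp. The lentiviral copy of SCHLAP1 is not part of these coordinates.

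Genes of the basal epithelial layer, looked at also as a check of the labelled cell type, carried both ATPases more often than not. Of 26 basal genes, 22 were named by both, TP63 and LAMA3 by BRG1 alone and ITGA6 by BRM alone, although 14 BRG1 peaks with other names lay within ITGA6. Their BRG1 peaks met BRM in 33.3% (26.2 to 41.1%), close to the 35.7% of the whole list. Over all names 56.7% were named by both. Of the basal genes with a BRG1 peak 8.33% had no BRM peak, against 41.0% of all such names. Peak number differs between these, since the 26 basal genes held 165 BRG1 peaks and 10492 names had only 1. Of all names with at least 5 BRG1 peaks, 11.7% had no BRM peak. The keratins KRT5, KRT14 and KRT15 had 4 and 6, 7 and 3, and 4 and 3 peaks of BRG1 and BRM. EGFR, the growth factor receptor, had 31 and 12, and DST, a hemidesmosome linker, 15 and 1. ITGA3, the integrin chain with the widest BRG1 peak that met BRM in this list (6050 bp), had 4 and 6. Among 20 genes of luminal prostate cells, 10 were named by both, TMPRSS2, ACP3 and TRPM8 by BRG1 alone and 7 by neither, KLK2 and KLK3 among them. Of their 36 BRG1 peaks 61.1% (43.5 to 76.9%) met BRM. Of the luminal genes with a BRG1 peak 23.1% had no BRM peak. FOXA1, a pioneer factor of the luminal lineage, had 6 and 6. Markers of blood cells, hepatocytes and stromal and endothelial cells had fewer peaks, with 13, 6 and 20 BRG1 and 5, 2 and 5 BRM peaks. The 25 neuronal genes did not, with 49 BRG1 and 25 BRM peaks against 36 and 26 in the luminal list. Of 20 blood cell genes 11 were named by neither, of 20 hepatocyte genes 15, and of 16 stromal and endothelial genes 6. BRG1 alone named 6, 4 and 6 of these, and both ATPases 3, 1 and 4. Of those with a BRG1 peak, which are few, 66.7, 80 and 60% had no BRM peak.

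Signalling and transcription factor genes varied around the whole list. Of 15 AP-1 genes 12 were named by both and MAFF by BRG1 alone, and 63.6% (45.1 to 79.6%) of their 33 BRG1 peaks met BRM. FOSL2 and FOSB had more BRM (5 and 5) than BRG1 peaks (3 and 3), and ATF3 more BRG1 (6) than BRM (2). The median width ratio of their 13 one-to-one pairs was 1.23, against 1.67 over all pairs. Of 22 genes of YAP and TEAD, the growth-control coactivator and its DNA-binding partners, with their targets, 20 were named by both. The targets CCN2 and ANKRD1 were named by BRG1 alone. TEAD1 had 23 BRG1 and 9 BRM peaks, YAP1 18 and 8, and MYOF 19 and 12. NF-kB genes were named by both in 16 of 20, and IL6 and CXCL8 by BRG1 alone, with 2 BRG1 peaks each, while the cytokine genes CXCL1, CXCL2, CXCL3, CCL20 and IL1B had both. Of the NF-kB genes with a BRG1 peak 11.1% had no BRM peak, against 41.0% of all such names. That share was 7.69% for the AP-1 genes and 9.09% for the genes of YAP and TEAD. The NF-kB, AP-1 and YAP and TEAD genes held 54, 33 and 171 BRG1 peaks. Over all names the share without BRM was 53.9% with 1 BRG1 peak, 30.1% with 3 and 11.7% with at least 5. NFKB1 had 10 BRG1 peaks and 1 BRM peak.

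Of 25 interferon genes, 14 were named by both, 9 by BRG1 alone and none by BRM alone. Those with BRG1 alone were IFI35, IFI44, IFI44L, IFIT1, IFIT3, IFITM1, MX2, OAS2 and OASL, each with 1 or 2 BRG1 peaks. Related antiviral genes such as ISG15, IFIT2, IFITM3, MX1, OAS1 and OAS3 had both, as had the regulators IRF1 (8 and 7 peaks), IRF7, IRF9 and STAT2. Of the interferon genes with a BRG1 peak 39.1% had no BRM peak, and of all such names 41.0%, a near equal share. Ribosomal protein genes, active in every cell, were named by both in 31 of 40, by BRM alone in 5 (RPL4 and RPL10 among them) and by BRG1 alone at RPL3. Of their 62 BRG1 peaks 66.1% (53.0 to 77.7%) met BRM, against 35.7% in the whole list and 61.6% of BRG1 promoter peaks. Of 39 HOX genes, 21 were named by both, 4 by BRG1 alone, HOXA6 and HOXC4 by BRM alone and 12 by neither. No BRM peak was found for 16% of the HOX genes with a BRG1 peak and 3.1% of such ribosomal protein genes. Of 25 neuronal genes, 8 were named by both, 6 by BRG1 alone, SNAP25 by BRM alone and 10 by neither. Of the neuronal genes with a BRG1 peak 42.9% had no BRM peak, and of all such names 41.0%, a near equal share. GRIK2 had 5 and SYT1 had 4 BRG1 peaks without BRM, while GRIN1 had 7 BRG1 and 14 BRM peaks. The lists also differ in BRG1 peaks per gene, on which the share without BRM depends. Members of a list share neighbourhoods and were picked with earlier results known, so these counts describe the lists and support no difference between them.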

How the data were processed

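The authors sequenced DNA precipitated with BRG1 or BRM antibodies in RWPE1 cells with SCHLAP1 after MNase digestion, per the labels. The submitters' processing notes name MACS2, Bowtie2, deepTools 2.5.2 and SAMtools, and hg38 as build. Input, threshold, filter and any pooling of replicates have no entry in them (not given in the sources used here). Each of the 2 deposited lists gives position, width in bp, type, nearest TSS and distance to it in bp for every peak, per the file headers. It holds no score or count, so depth is unknown. The SNF5 list, the histone marks and the inputs were not analysed here.

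Peaks were matched at 1 bp overlap in Python 3.11.15 with numpy 2.4.6, pandas 2.3.3 and scipy 1.17.1; figures were drawn with matplotlib 3.10.9. The matching was tested on simulated lists where a BRG1 peak had at most 1 BRM peak, narrower and nested in it. Several partners and partial overlaps were not simulated. Intervals of shares are Clopper-Pearson, those of medians come from order statistics, both at 95%. Gene lengths, biotypes and promoter windows are from RefSeq (GRCh38.p14), matched by symbol for 77.7% of names. Named were the 12 genes with most peaks of one ATPase and none of the other; the 5 pairs highest and lowest in width ratio, largest in offset, and widest among those within 25 bp; the 5 peaks with most partners; the 5 largest excesses; list members with most peaks of one ATPase or the widest meeting peak; the ATPase genes and the SCHLAP1 locus. Some genes that the rule takes are not reported here. Some named genes stand outside this rule as examples from the 13 lists. Members, lists and rules were chosen with earlier results of these data known. Alternatives were other overlap rules, width and peak minimums, equal list lengths, chromosomes and gene naming.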

Additional observations from a re-analysis of the deposited data

How the results depend on the processing

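No paired analysis was possible because each ATPase has 1 peak list with no values per replicate. Leaving out a replicate was not run for the same reason, and depth is unknown.

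The shares of BRG1 and of BRM peaks that met the other list were 34.3 and 89.8% with an overlap of 50% of the narrower peak, 19.03 and 44.2% with 50% of both, and 44.3 and 95.5% with a gap of up to 1 kb. They were 33.2 and 95.4% with peaks of at least 500 bp, and 63.0 and 74.7% with equal numbers of peaks. The median offset was 187.5 bp over all overlapping pairs and 104 bp with 50% overlap of both peaks; in the same settings the width ratio was 1.86 and 1.37. The ratio was 1.57 at promoters, 1.499 with both peaks at least 500 bp wide, and 1.65 where the BRM peak was wider than the narrowest width, a setting chosen after seeing the data. BRG1 stayed the wider peak by the median in all 6 alternatives.

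The 287 genes with BRG1 alone became 179 with peaks of at least 500 bp (64 of them among the 287), 12 with equal numbers of peaks, 1326 at a minimum of 3 peaks and 54 at 8. The 63 genes with BRM alone became 21 with peaks of at least 500 bp (14 among the 63), 353 with equal numbers, 14 at a minimum of 3 and 23 with no BRG1 peak within 1 kb. Counting only RefSeq protein-coding genes, added after seeing the data, left 107 and 38, and RefSeq-matched genes with no peak of the other list within the gene, also added later, 163 and 15.

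The share of promoter pairs with the BRM centre upstream has alternatives that were all added after seeing the data. It was 54.2 and 46.9% where RefSeq and deposited distances lay within 100 and 10 bp of each other. It was 44.1, 65.8 and 63.7% with the start under 200, at 200 to 500 and over 500 bp from the BRG1 centre, and 66.7 and 33.7% with the BRG1 centre downstream and upstream. Leaving out chromosomes 18, 22 and X, also added later, kept the 4 shares and medians it was applied to within their intervals and both gene counts within 1.5 times.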
